A study of Homo sapiens with 24 samples.

Results

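Interferon-stimulated genes are the genes that a cell switches on when interferon, or a sensor of foreign nucleic acid, signals an infection. A set of 48 of them was followed in A549 and H1975, 2 cell lines from human lung adenocarcinoma, with and without the anti-fibrotic drug Pirfenidone. The members were found by their gene symbols in the array files, and all 48 had a probe, of 24655 genes named on the array. They were covered by 64 probes, and the values given for a gene are those of the probe with the highest mean level, except that both probes of ZC3HAV1 are described. The choice of members used no measured value, but earlier results of these arrays were known when the list was drawn up.

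The arrays were Agilent one-color arrays, on which the brightness of a spot measures the RNA bound by its probe. Cells received 0.75 mg/ml Pirfenidone or the same volume of PBS, the solvent, for 6 h or 24 h. This gave 8 groups of 3 samples and 24 arrays, namely A549 in PBS at 6 h and 24 h, A549 in Pirfenidone at 6 h and 24 h, and the same 4 groups of H1975. Each line stands for 1 tumor, and the labels do not say whether the 3 samples of a group were separate cultures, so p-values measure the spread between these samples, which may be technical.

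A level here is a spot's background-corrected log2 signal after subtraction of the array's 75th percentile, so a level of 0 is a bright spot and 1 unit is a 2-fold step. Levels are compared only within a probe. Differences were tested with limma over 23827 probes, and a probe was called at a Benjamini-Hochberg adjusted p of at most 0.05 with a log2 difference of at least 1. The share of probes well above background ranged from 62.67% to 69.48% over the arrays. The array names carry 4 different days, numbered here by date. What happened on a day is not stated, and A549 was on days 1, 2 and 3, and H1975 on days 1, 3 and 4. Slides held 1 line each, so slide and line cannot be told apart, within a day as well. The place on a slide went with treatment and time, so place and treatment cannot be told apart.

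Both lines carried the markers of epithelial cells. All 6 epithelial markers, among them EPCAM and KRT18, stood well above background on every array. Of 8 leukocyte markers, 2 to 4 were on all 3 arrays of an A549 group and 3 to 5 in an H1975 group, with summed signals, relative to the 75th percentile of the array, of 0.377 to 1.5 and 0.515 to 1.61. Of these, MS4A1 was above background on no array. Of 6 fibroblast markers, COL3A1 and DCN were above background on no array, and the summed signal was 0.243 to 0.968 in A549 and 2.53 to 8.26 in H1975. Of 4 endothelial markers, KDR was above background on no array, and the summed signal was 0.0215 to 0.0307 in A549 and 0.0639 to 0.106 in H1975. The part of these genes in the differences between the lines was not tested.

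Type I interferons bind the receptor chains IFNAR1 and IFNAR2, whose kinases JAK1 and TYK2 phosphorylate STAT factors such as STAT2. Together with IRF9 these form a complex that binds a short motif in the promoters of many interferon-stimulated genes, the interferon-stimulated response element. The products include sensors of viral RNA, enzymes that degrade or modify it, proteins that block entry or budding of viruses, and ISG15, which is attached to other proteins much like ubiquitin. Part of the set is also expressed in tumor cells that meet no virus.

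The first comparison asked how the set stood in the 2 lines without the drug. At 6 h in PBS, 37 of the 48 members differed between the lines, 35 higher and 2 lower in H1975 than in A549. By the same rule, 32.4% of all probes tested were called, 4071 of 23827 higher and 3638 lower in H1975. The median difference of the members, H1975 minus A549, was 2.23 on the log2 scale, against 0.06 over all probes tested. It was also 2.23 with 6 of the 7 members on no A549 array at the bounds given below. TRIM22, the other of these 7, stayed at its fitted value. At 24 h the members numbered 35, of which 33 were higher and 2 lower, against 32.9% of all probes, 4284 higher and 3560 lower. The median was then 2.27, against 0.08 over all probes. The same 35 members were called at both times, and IRF7 and UBE2L6 only at 6 h. In RNA from whole cultures, fewer expressing cells and less RNA per cell cannot be told apart.

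A member could pass the filter on dim probes through 1 line alone. Of the 48, 39 passed it through groups of both lines, by a signal well above background on each of a group's 3 arrays. The other 9, namely GBP1, IFI44, IFI44L, MX2, OAS2, RSAD2, SAMD9, TRIM22 and XAF1, passed only through H1975. Among these 39, 27 were called higher in H1975 at 6 h and 25 at 24 h. Passing took only 1 group of a line, and the share among all probes passing in both lines was not computed. Within the days that held both lines, the median difference of the members at 6 h was 2.46 on day 1 and 2.23 on day 3. At 24 h it was 2.65 on day 1 and 1.91 on day 3.

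**Figure D1:**
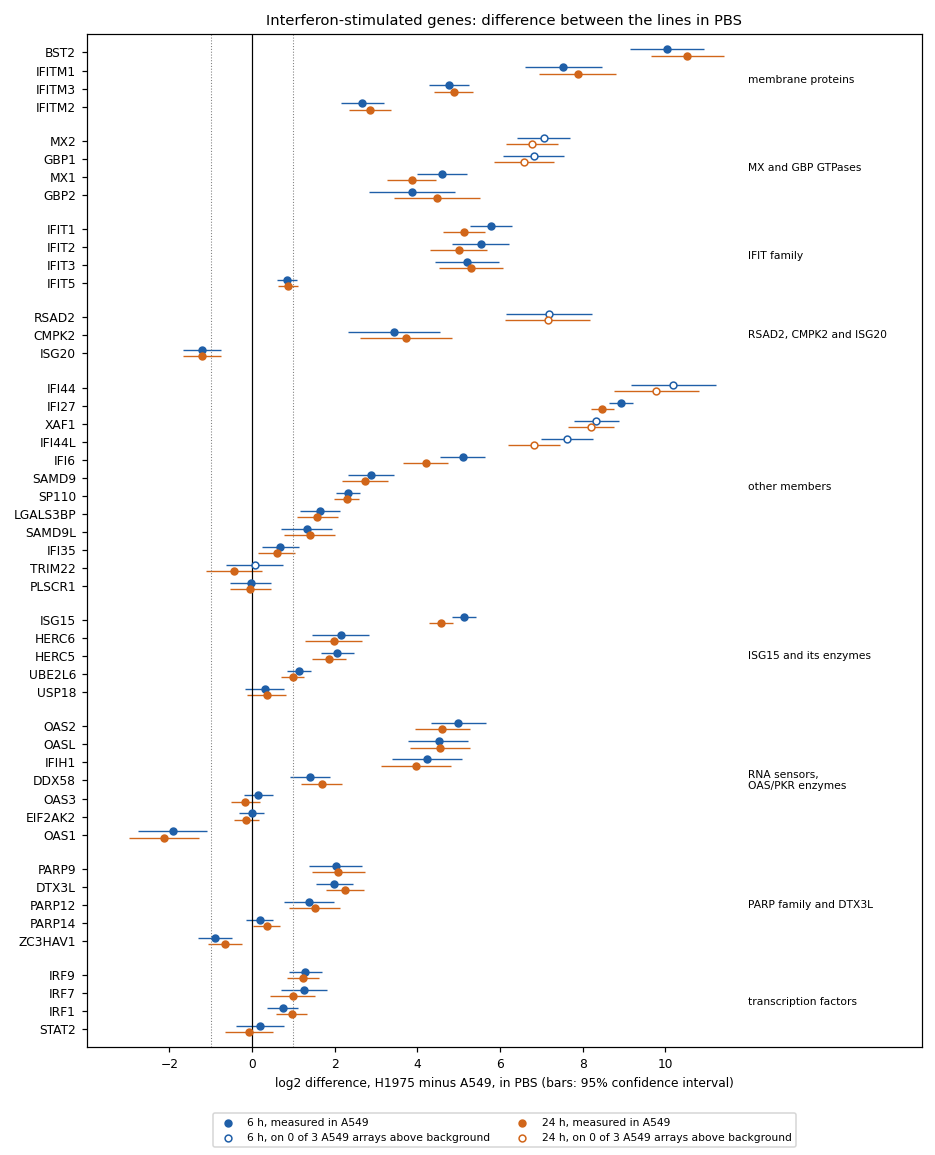
Difference between the lines in PBS for each of the 48 members, on the log2 scale, at 6 h (blue) and 24 h (orange), with 95% confidence intervals, grouped by role; open points were well above background on 0 of 3 A549 arrays, and dotted lines mark the limits of -1 and 1. Most points lie right of 1 at both times, at 6 h from UBE2L6 at 1.14 to BST2 at 10.03 among called members measured in A549, open points show fitted values that are no bound, and OAS1 and ISG20 lie left of -1.

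The membrane proteins, which hold back the entry or release of enveloped viruses, were all called higher in H1975, 4 of 4 at both times, with a median difference of 6.15 at 6 h. BST2, or tetherin, which ties budding virus to the cell surface, lay at -6.23, -5.73 and -6.13 on the A549 arrays and at 3.29, 4.4 and 4.32 on the H1975 arrays in PBS at 6 h. The lines did not overlap, and the difference was 10.03 (SE 0.43, limma adjusted p = 1.73e-13). At 24 h only 1 of 3 A549 arrays measured BST2 above background. IFITM1, which acts at the plasma membrane, lay at -3.8, -3.86 and -4.54 in A549 and at 2.5, 4.06 and 3.82 in H1975 at 6 h. IFITM3, which acts in endosomes, differed by 4.77 (SE 0.23) and IFITM2 by 2.67 (SE 0.24) at 6 h, and both were bright in A549 as well, with means of 1.16 and 2.28. The second probes of BST2 and IFITM1 gave differences of 10.2 and 8.04 at 6 h.

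Of the GTPases of the MX and GBP families, which act against viral capsids and intracellular pathogens, 4 of 4 were called higher in H1975 at both times, though MX2 and GBP1 were well above background on no A549 array in PBS and passed the filter only through H1975. With these at the bounds given below, the median difference of the group was 4.96 at 6 h. MX1 lay at -4.92, -4.63 and -4.66 in A549 and at -0.11, 0.06 and -0.36 in H1975 at 6 h, a difference of 4.6 (SE 0.28, limma adjusted p = 5.7e-11). The difference of MX2 and of GBP1 has only a bound. Against the dimmest signal called well above background, or the probe's own where that was higher, MX2 was at least 40.2-fold higher in H1975 at 6 h and at least 37.4-fold at 24 h. GBP1 was at least 44.2-fold and at least 33.9-fold higher. GBP2 differed by 3.88 (SE 0.5) at 6 h. The brightest MX2 probe lies at chr21:42780501-42780560 (hg19). A second MX2 probe, at chr21:42735919-42735978 and assigned to another transcript, was above background on all arrays and differed by 0.09 (SE 0.19) at 6 h.

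The IFIT proteins bind viral RNA and block its translation. IFIT1, IFIT2 and IFIT3 were called higher in H1975 at both times, and IFIT5 was not, since its difference of 0.85 (SE 0.11) at 6 h stayed under the limit of 1. IFIT1 lay at -3.37, -3.35 and -3.15 in A549 and at 2.9, 2.51 and 2.07 in H1975 at 6 h, a 55.2-fold difference (limma adjusted p = 1.33e-13). At 24 h the A549 levels of IFIT1 were -2.54, -2.64 and -1.96 and the fold was 34.9. IFIT3 differed 36.9-fold at 6 h. IFIT2 differed by 5.53 (SE 0.33) on its brightest probe and by 3.53 (SE 0.52) on its second, both on the log2 scale at 6 h.

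Of ISG15 and the enzymes that attach or remove it, 4 of 5 were called higher in H1975 at 6 h and 3 of 5 at 24 h. ISG15 itself lay at -0.17, 0.13 and 0.06 in A549 and at 5.07, 5.27 and 5.07 in H1975 at 6 h, a 35-fold difference with an SE of 0.14 on the log2 scale (limma adjusted p = 1.25e-16). HERC5, the ligase that joins ISG15 to its targets, differed by 2.06 (SE 0.19), the related HERC6 by 2.14 (SE 0.33) and UBE2L6, the conjugating enzyme, by 1.14 (SE 0.13). HERC6 was above background on 2 of 3 A549 arrays at 6 h. Over 20 other settings its difference ran from 0.85 to 2.4, and the call was lost in 2. USP18, which removes ISG15 and dampens interferon signaling, lay at -0.91, -0.72 and -0.33 in A549 and at 0.09, -0.42 and -0.71 in H1975. These ranges overlapped, and the difference of 0.31 had a 95% confidence interval of -0.16 to 0.78.

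The sensors of viral RNA and the OAS and PKR enzymes were split. IFIH1, which detects long double-stranded RNA, differed by 4.22 (SE 0.4) at 6 h, with A549 arrays at -4.68, -4.81 and -4.3 and H1975 arrays at 0.51, -0.67 and -0.97. DDX58, or RIG-I, which detects RNA with a triphosphate end, differed by 1.4 (SE 0.23). OAS2 differed by 4.99 (SE 0.32) and OASL by 4.51 (SE 0.35), and 2 of 3 A549 arrays measured OAS2 above background. The other members of this group ran otherwise.

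OAS1, which makes short oligoadenylates when it binds double-stranded RNA, was lower in H1975. Its probe lies at chr12:113354461-113354520 (hg19), and it lay at -1.21, -1.74 and -1.07 in A549 and at -3.43, -3.01 and -3.34 in H1975 at 6 h. The difference was -1.92 (SE 0.4) at 6 h and -2.12 (SE 0.4) at 24 h, with limma adjusted p = 4.07e-04 and 1.51e-04. At 24 h the A549 arrays spread widely, at -2.09, -1.77 and -0.17, the last being the replicate 3 array. OAS3 and EIF2AK2, the kinase PKR that stops translation when it binds double-stranded RNA, were not called. EIF2AK2 lay between 1.92 and 2.3 in A549 and between 2.01 and 2.1 in H1975 at 6 h, and the difference of -0.01 had an interval of -0.31 to 0.29. The interval for OAS3 was -0.19 to 0.5.

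RSAD2, or viperin, a radical SAM enzyme that makes a chain-terminating nucleotide, was well above background on no A549 array and at least 29.4-fold higher in H1975 at 6 h. CMPK2, its neighboring kinase gene, differed by 3.43 (SE 0.54). ISG20, an exonuclease that degrades single-stranded RNA, was the second member that was lower in H1975. It lay at 3.16, 2.89 and 3.25 in A549 and at 2.15, 1.84 and 1.67 in H1975 at 6 h, with a difference of -1.21 (SE 0.22, limma adjusted p = 1.08e-04). At 24 h the difference was also -1.21, and without replicate 3 of A549 in PBS at 24 h the difference was -0.9 and no longer called.

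Of the remaining members, 9 of 12 were called higher in H1975 at both times. IFI27, a small mitochondrial protein often used to report interferon exposure, lay at -4.44, -4.31 and -4.57 in A549 and at 4.69, 4.28 and 4.48 in H1975 at 6 h, a 484-fold difference (SE 0.14 on the log2 scale, limma adjusted p = 3.85e-20). IFI44, IFI44L and XAF1 were well above background on no A549 array in PBS. They were at least 315-fold, 48.7-fold and 76.6-fold higher in H1975 at 6 h. IFI6, which guards the membranes of the endoplasmic reticulum and mitochondria, differed by 5.09 (SE 0.26). SAMD9, a translation inhibitor, differed by 2.87, its relative SAMD9L by 1.32, the nuclear body protein SP110 by 2.32 and the secreted glycoprotein LGALS3BP by 1.64. SAMD9 was dim in A549 and passed the filter only through H1975. Over 20 other settings its difference at 6 h ran from 1.24 to 3.1. IFI35, PLSCR1 and TRIM22 were not called. TRIM22 was well above background on 2 of 3 H1975 arrays and on 0 of 3 A549 arrays in PBS at 6 h.

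Among the PARP family and its partner DTX3L, PARP9, PARP12 and DTX3L were called higher in H1975 at both times, with differences of 2.02, 1.38 and 1.99 at 6 h, and PARP14 was not called. ZC3HAV1, or ZAP, which binds CpG-rich viral RNA and recruits its decay, gave a different answer for each probe. The probe assigned to transcript variant 1, at chr7:138728351-138728410 (hg19), differed by -0.89 (SE 0.2) at 6 h, within the limit of 1. The probe assigned to variant 2, at chr7:138745443-138745502, was called higher in H1975, by 1.9 (SE 0.2) at 6 h and by 2.08 (SE 0.2) at 24 h.

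The transcription factors of the set differed less. IRF9, the DNA-binding part of the STAT complex, differed by 1.29 (SE 0.19) at 6 h and by 1.24 at 24 h and was called at both. A second IRF9 probe, above background on all arrays compared, differed by 0.49 (SE 0.59) and 0.7 (SE 0.59) and was not called. IRF7, which amplifies interferon production, differed by 1.26 (SE 0.26) at 6 h and by 0.98 at 24 h. IRF1 differed by 0.74 (SE 0.18) at 6 h and was not called. STAT2 lay at 1.16, 1.1 and 0.98 in A549 and at 1.13, 1.28 and 1.41 in H1975 at 6 h, overlapping, with an interval for the difference of -0.38 to 0.76.

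**Figure D2:**
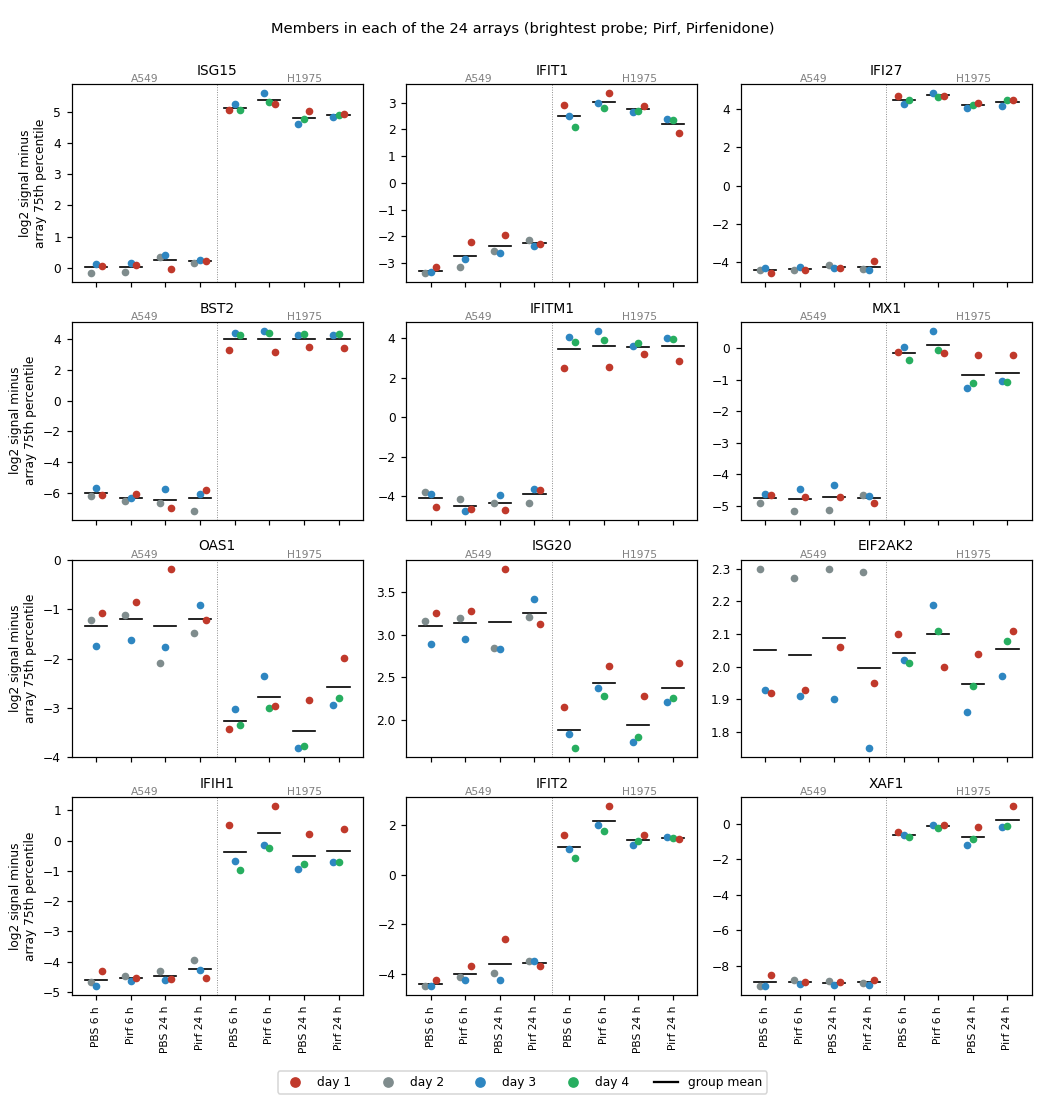
Level of 12 members on each of the 24 arrays (log2 signal minus the 75th percentile of the array), by group and colored by day, with black lines for group means; each panel has its own scale. The lines separate by several units for ISG15, IFIT1, IFI27 and BST2, OAS1 and ISG20 run the other way, and EIF2AK2 stays between 1.75 and 2.3 on every array.

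Promoter sequences are shown because members called between the lines and members not called both held the response element. RefSeq promoter entries (GRCh38.p14) matched 39 of the 48 members. The core of the interferon-stimulated response element was searched as GAAANNGAAA, or TTTCNNTTTC on the other strand, in the 250 bases before each start. It was present for 24 of the 39 members (61.5%) and for 3.71% of the 27305 genes of the promoter table. Of the 28 matched members called higher in H1975 at 6 h it was present for 19, of the 2 called lower for 1, and of the 9 not called for 4. The core of the gamma-activated sequence, TTCNNNGAA, which reads the same on both strands and can overlap the first motif, was present for 11 of the 39 members and for 8.09% of the genes of the table. A match describes these letters only. The last 120 bases before the start follow for 4 members called higher in H1975 and for OAS3 and PLSCR1, which were not called, with the response element core in capitals, 5′ to 3′ on the strand of the gene.
ISG15: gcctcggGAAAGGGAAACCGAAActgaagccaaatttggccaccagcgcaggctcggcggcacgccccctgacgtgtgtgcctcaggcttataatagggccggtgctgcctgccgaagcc
IFI27: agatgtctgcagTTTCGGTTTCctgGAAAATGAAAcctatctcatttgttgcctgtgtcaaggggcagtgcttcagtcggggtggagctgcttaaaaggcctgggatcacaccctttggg
IFIT1: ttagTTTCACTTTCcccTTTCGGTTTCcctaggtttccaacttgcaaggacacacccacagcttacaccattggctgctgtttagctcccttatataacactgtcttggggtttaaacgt
IFITM3: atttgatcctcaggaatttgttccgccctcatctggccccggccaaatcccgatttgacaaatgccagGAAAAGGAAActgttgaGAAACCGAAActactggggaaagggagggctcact
OAS3: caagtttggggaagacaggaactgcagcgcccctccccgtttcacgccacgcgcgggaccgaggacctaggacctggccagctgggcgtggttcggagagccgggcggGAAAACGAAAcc
PLSCR1: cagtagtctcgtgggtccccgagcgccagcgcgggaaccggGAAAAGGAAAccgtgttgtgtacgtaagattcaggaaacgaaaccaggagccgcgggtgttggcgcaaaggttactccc
These stretches lie at chr1:1013377-1013496 on the plus strand for ISG15, chr14:94110616-94110735 on the plus strand for IFI27, chr10:89392503-89392622 on the plus strand for IFIT1, chr11:320861-320980 on the minus strand for IFITM3, chr12:112938354-112938473 on the plus strand for OAS3 and chr3:146544608-146544727 on the minus strand for PLSCR1. In ISG15, 2 copies of the core overlap in 1 run, and in IFI27 a core on each strand lies side by side. The OAS3 stretch holds 1 core close to the start, and the PLSCR1 stretch holds 1.

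Other genes of the interferon pathway were compared next, both genes that carry the signal and further interferon-induced genes. The lists held 84 pathway genes that are no members, of which 76 had a probe and 62 were tested. Of the 62 tested, 34 were further interferon-induced genes. At 6 h in PBS, 24 of the 62 were called higher and 8 lower in H1975, and at 24 h 24 higher and 5 lower. Of all 23827 probes, 4071 were called higher and 3638 lower at 6 h and 4284 and 3560 at 24 h. The median differences of the 62 were 0.54 and 0.46, and 0.47 and 0.46 with genes on no A549 array at their bound. The 34 further interferon-induced genes made up 18 of the 24 called higher and 2 of the 8 called lower at 6 h. At 24 h they made up 18 of the 24 and 1 of the 5. The counts and medians of the 62 are therefore not those of the genes that carry the signal alone. Of the 14 interferon genes with a probe, 10 were well above background on no array, among them IFNB1 and IFNG. The ligand IFNE was measured on all 24 arrays and called lower in H1975 at 6 h, by -1.31 (SE 0.46).

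Of the receptor chains, 1 of 5 was called, and lower in H1975. IFNAR2 lay at 0.92, 1.25 and 1.48 in A549 and at 0.2, 0.1 and 0.06 in H1975 at 6 h, a difference of -1.1 (SE 0.15, limma adjusted p = 3.3e-06). IFNAR1 differed by -0.89 (SE 0.18) and IL10RB by -0.91 (SE 0.14), both within the limit of 1, and IFNGR1 and IFNGR2 differed by 0.09 and -0.1. JAK2 was called lower, by -1.08 (SE 0.18), and TYK2 higher, by 1.44 (SE 0.22). JAK1 differed by -0.83 and STAT3 by -0.51, and neither was called.

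Of 11 genes of upstream sensing, 4 were called higher at both times. TMEM173, or STING, the adaptor of cytosolic DNA sensing, lay at -3.53, -3.47 and -2.93 in A549 and at 1.81, 1.85 and 1.74 in H1975 at 6 h, a difference of 5.11 (SE 0.2, limma adjusted p = 4.74e-14). MB21D1, or cGAS, which makes the ligand of STING, differed by 1.06 (SE 0.15), TICAM1, the adaptor of TLR3, by 1.08 (SE 0.13), and DHX58, a regulator of the RNA sensors, by 4.36 (SE 0.31). TLR3 was called lower at 6 h, by -1.03. Among the negative regulators SOCS1 was called higher, by 2.69 (SE 0.27), and SOCS3 lower at 6 h, by -1.52 (SE 0.15).

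Of 34 further interferon-induced genes that were tested, 18 were called higher and 2 lower in H1975 at 6 h, and 18 higher and 1 lower at 24 h. IFI16, a DNA sensor, was well above background on no A549 array in PBS and at least 234-fold higher in H1975 at 6 h, and APOBEC3G, a cytidine deaminase, at least 62.2-fold. PSMB8 and PSMB9, subunits of the immunoproteasome, differed by 2.89 and 2.15, and NLRC5, which drives genes of antigen presentation, by 2.95. GBP5, on 1 of 3 A549 arrays, differed by 6.76, and RTP4, a chaperone for receptors, was at least 16.1-fold higher. Called higher too were APOL1, APOL6, BATF2, DDX60, GBP3, HELZ2, IFI30, LAMP3, PML and TRIM14, with differences between 1.16 for APOL1 and 2.84 for APOL6. EPSTI1 was called as well, but was above background on no A549 array in PBS and only at least 1.77-fold higher at 6 h, which is under the limit of 2-fold. TDRD7, a Tudor domain protein, was lower in H1975 at 6 h, by -1.13 (SE 0.38). CXCL10 and CXCL11, chemokines that interferon induces in many cells, were well above background on no array of either line.

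**Figure D3:**
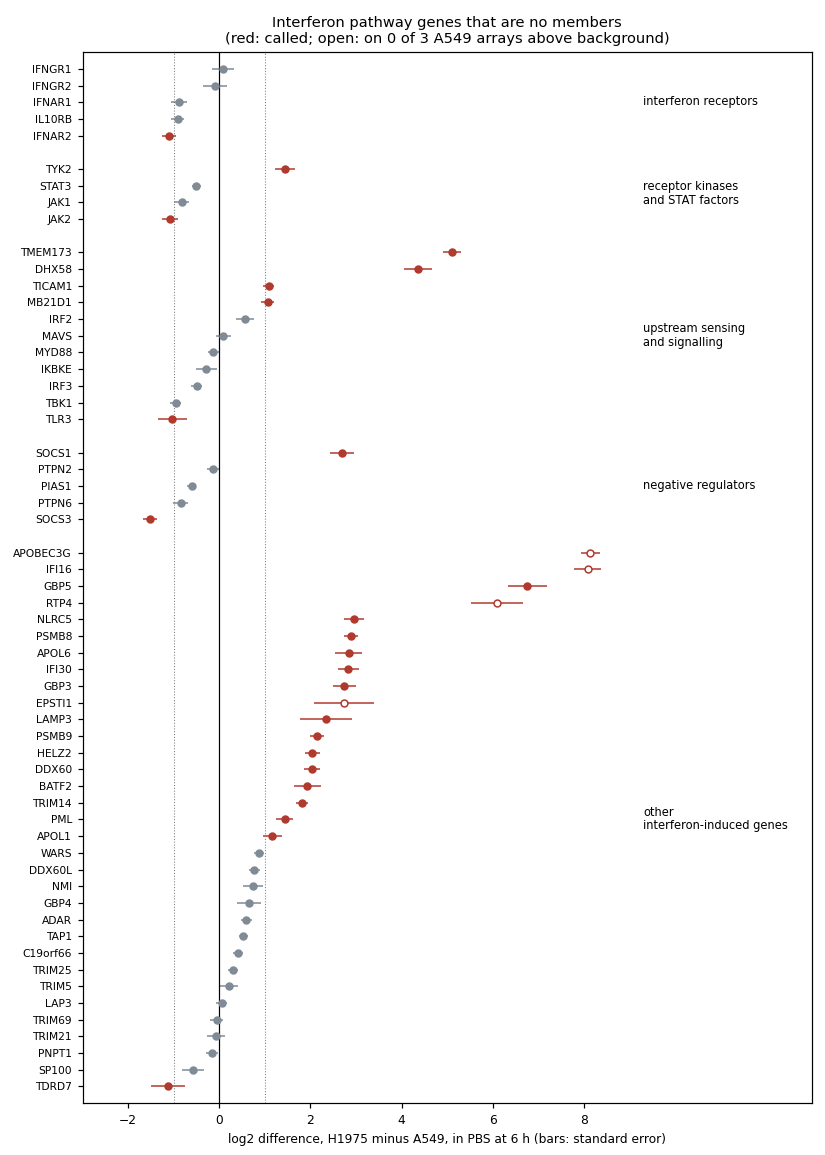
Difference between the lines in PBS at 6 h, H1975 minus A549, on the log2 scale with standard errors, for tested pathway genes that are no members, ligands left out; red points were called, and open points were well above background on 0 of 3 A549 arrays. IFNAR2 lies at -1.1, while DHX58 lies at 4.36 and TMEM173 at 5.11, and open points show fitted values that are no bound.

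The effect of Pirfenidone on the set was tested within each line and time. In A549 at 6 h, 1 of the 48 members was called, ZC3HAV1, against 0.176% of all probes tested. The median change of the members, Pirfenidone minus PBS, was -0.04, and that of all probes -0.01. The variant 1 probe of ZC3HAV1 lay at 2.61, 2.39 and 2.13 in PBS and at 1.17, 0.54 and 0.05 in Pirfenidone. The groups did not overlap, and the level fell by 1.79 (SE 0.2, limma adjusted p = 3.35e-04), 3.46-fold. Within days the ZC3HAV1 change was -2.08 on day 1, -1.44 on day 2 and -1.86 on day 3. The variant 2 probe of ZC3HAV1 lay at -2.46, -2.53 and -2.65 in PBS and at -2.75, -2.63 and -2.95 in Pirfenidone, a change of -0.23 that was not called. At 24 h the variant 1 probe was back at 2.33, 2.19 and 2.15 in Pirfenidone, against 2.46, 2.46 and 2.18 in PBS.

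**Figure D4:**
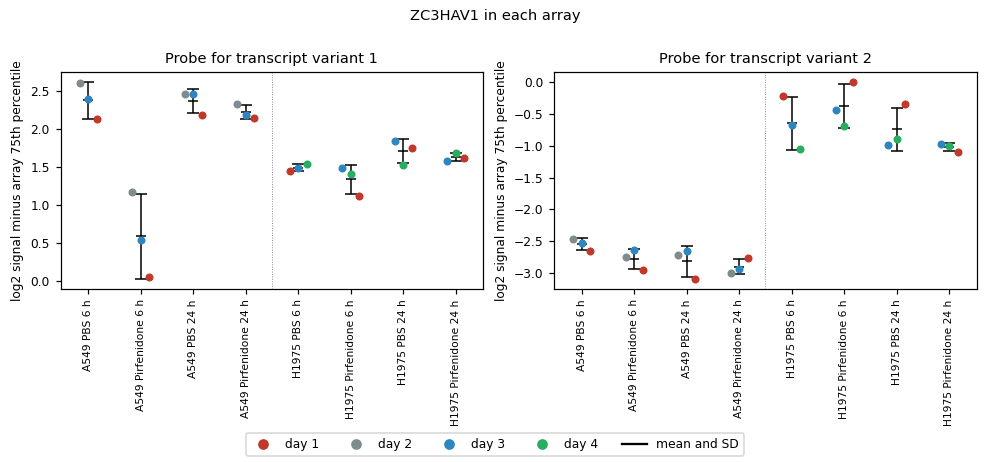
Level of both ZC3HAV1 probes on each array (log2 signal minus the 75th percentile of the array), by group and colored by day, with mean and SD of 3 arrays. The variant 1 probe drops only in A549 with Pirfenidone at 6 h, to between 0.05 and 1.17, and the variant 2 probe of the same arrays lies between -2.95 and -2.63.

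The other A549 members with the largest changes at 6 h among those above background on all 6 arrays were not called. IFIT1 changed by 0.55, IFIT2 by 0.39 and SAMD9L by 0.28, and IFITM1 by -0.44 and PARP9 by -0.39. IFIT1 lay at -3.15, -2.85 and -2.22 in Pirfenidone, where the lowest array equaled the highest PBS array at 2 decimals, with a limma adjusted p of 0.744. In A549 at 24 h no member was called by limma, 0 had an unadjusted p under 0.05, and an ordinary paired test by day also called 0. The share of all probes called there was 0.0126%. The changes ran from -0.28 to 0.45, the latter for IFITM1, followed by IFIT3 at 0.26 and IFIH1 at 0.23, and the lowest among members above background on all 6 arrays were CMPK2 at -0.23, ZC3HAV1 at -0.14 and SAMD9L at -0.13. In these A549 arrays at 24 h the replicate 3 pair ran apart from the others. IFIT2, for example, changed by -1.13 on day 1, by 0.47 on day 2 and by 0.78 on day 3.

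In H1975 at 6 h limma called 0 of the 48 members, against 0.491% of all probes, and 8 (16.7%) had an unadjusted p under 0.05, against 11% of all probes. The changes were small and mostly above 0, in 41 of 48 members, with a median of 0.19 against 0.05 over all probes. The share of all probes above 0 was not computed, neither for this comparison nor within days. With normexp background correction the members' median was 0.2 but that of all probes 0.29, so their place relative to all probes turned. Within days the median of the members was 0.06 on day 1, 0.3 on day 3 and 0.23 on day 4, and 26, 43 and 42 members lay above 0.

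IFIT2 had the largest of these changes in H1975 at 6 h, 1.08 (SE 0.33, limma adjusted p = 0.138). It lay at 1.61, 1.03 and 0.69 in PBS and at 2.02, 1.79 and 2.77 in Pirfenidone, so the groups did not overlap. Array by array on the same day, IFIT2 changed by 1.16 on day 1, 0.99 on day 3 and 1.1 on day 4, and its second probe by 1.33, 1.29 and 1.25. OASL, a protein that enhances RIG-I signaling, changed by 1.01 (SE 0.35, limma adjusted p = 0.213). It lay at 1.63, 1.12 and 0.6 in PBS and at 2.07, 1.68 and 2.62 in Pirfenidone. Within days OASL changed by 0.99, 0.94 and 1.08. With day as a block within each line both genes were called, at limma adjusted p = 0.029 for IFIT2 and 0.00625 for OASL, and with slide as a random block they were called as well. The share of all probes called with these blocks is not given here, and 0.491% is the share in the fit without blocks. RSAD2 changed by 0.89 and GBP1 by -0.82, and neither was called. GBP1 lay at -1.41, -1.37 and -1.44 in PBS and at -2.11, -2.16 and -2.41 in Pirfenidone. IFIT5 changed by -0.28 and OAS2 by -0.17. The changes of IFIT2 and OASL in A549 at 6 h were 0.39 and 0.2, and the difference between the lines was not called for either.

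In H1975 at 24 h limma again called 0 members, against 1.89% of all probes, and 8 (16.7%) had an unadjusted p under 0.05, against 22% of all probes. The median change was 0.08, and 0.02 over all probes. XAF1, a binding partner of the apoptosis inhibitor XIAP, came closest from above, with a change of 0.98 (SE 0.26, limma adjusted p = 0.0326), just under the limit of 1. It lay at -1.21, -0.87 and -0.19 in PBS and at -0.16, -0.14 and 0.98 in Pirfenidone, narrowly without overlap. The second XAF1 probe changed by 1.05 and was called. Within days the first XAF1 probe changed by 1.17, 1.05 and 0.74 on days 1, 3 and 4. The arrays of day 3 in this comparison were on different slides and were scanned on different days. OAS1 changed by 0.9 and IRF7 by 0.62, with limma adjusted p = 0.193 and 0.169. OAS3 had the largest decrease, a fall that passed the p limit and not the fold limit. It lay at -1.08, -1.03 and -0.8 in PBS and at -1.7, -1.61 and -1.7 in Pirfenidone, with no overlap, and fell by 0.7 (SE 0.16, limma adjusted p = 0.0183). IFIT1 changed by -0.54 and IFIT3 by -0.51.

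**Figure D5:**
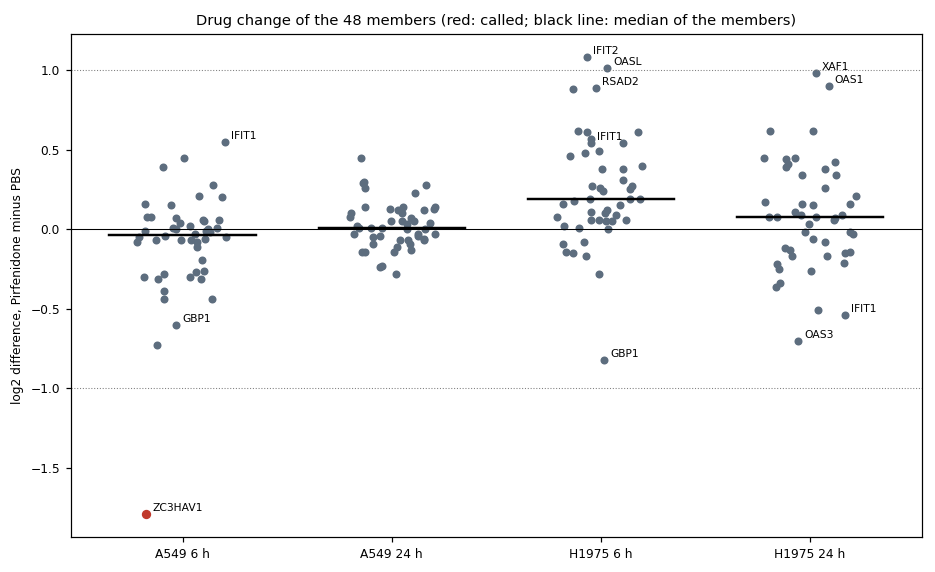
Change of each of the 48 members with Pirfenidone, on the log2 scale, in the 4 comparisons of Pirfenidone with PBS; red marks the 1 member called, ZC3HAV1 at -1.79 in A549 at 6 h, black lines mark medians of the members and dotted lines the limits of -1 and 1. The H1975 points at 6 h lie mostly above 0, with a median of 0.19, against 0.05 over all probes, and IFIT2 and OASL at the top.

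Whether the drug change differed between the lines was tested directly. At 6 h 1 member was called, against 0.0336% of all probes, again ZC3HAV1. Its variant 1 probe fell in A549, and the signed drug change was 1.64 higher in H1975 (SE 0.28, limma adjusted p = 0.0367). In H1975 that probe lay at 1.45, 1.48 and 1.54 in PBS and at 1.49, 1.4 and 1.12 in Pirfenidone at 6 h. Over 26 other settings the ZC3HAV1 value ran from 1.07 to 1.93 and the limma adjusted p from 9.97e-04 to 0.347. The call was lost in 20 of the 26, among them leaving out any of the 3 A549 or the 3 H1975 arrays in PBS at 6 h. At 24 h limma called 0 members, against 0.193% of all probes, and 3 (6.25%) had an unadjusted p under 0.05, against 12.2% of all probes. None of the 62 pathway genes was called by limma in any of the 4 drug comparisons or in these 2 tests, and between 0 and 17 of them had an unadjusted p under 0.05. The 17 of 62 were in Pirfenidone against PBS in H1975 at 24 h, where 22% of all probes had such a p.

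The set changed little between the times in PBS. From 6 h to 24 h limma called 0 members in A549, against 0.109% of all probes, and 0 in H1975, against 0.315%. Unadjusted p values under 0.05 were found for 5 and 7 members (10.4% and 14.6%), against 8.49% and 10.6% of all probes. The largest change was that of IFIT1 in A549, 0.91.

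Levels differed by day within H1975, over all probes tested as well as in the set. The array of day 1 was the highest of its 3 in all 4 H1975 groups for 18 of 48 members, against 19.9% of all probes tested. It was the lowest in all 4 for 5 of 48 members, a smaller share than the 20.8% of all probes. The 5 were BST2, GBP2, IFITM1, IFITM2 and IFITM3. Among the 18 were CMPK2, RSAD2, IFIH1 and IFIT3, which lay on average 1.58, 1.5, 1.2 and 0.93 higher on day 1 than on the other days, while IFITM1 and BST2 lay -1.16 and -1.01 apart from them. RSAD2 in PBS lay at -0.84 on day 1 and at -2.38 and -2.76 on the other days at 6 h, and at -0.64 against -2.57 and -2.38 at 24 h. The membrane proteins were lowest on the arrays on which CMPK2 and RSAD2 were highest. All day 1 arrays of H1975 were on 1 slide, so day and slide cannot be told apart. In A549 the day 1 array was the highest in all 4 groups for 3 members, against 6.87% of probes, and the lowest for 4, against 5.61%.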

How the data were processed

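Total RNA of 24 samples was hybridised to Agilent one-color arrays, 1 array per sample. The deposited scanner files hold spot intensity values that the authors' Feature Extraction software had corrected for background and spatial trends, with no normalization between arrays and probe positions on hg19. The authors also deposited a table of log2 values centered on each probe's median, whose array constant is not stated, and it served as an alternative.

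From each array, log2 intensity minus the 75th percentile over 43118 non-control spots was computed. Outlier spots were dropped and spots of the 34127 probes averaged. A probe was well above background where at least 0.5 of its spots were, and no probe was saturated. A probe was tested if some group had it well above background on each of its 3 arrays. The 23827 such probes entered 1 model of the 8 groups with 16 residual degrees of freedom (limma 3.58.1, R 4.3.3), and p-values were adjusted over all of them by Benjamini-Hochberg. Called probes had an adjusted p of at most 0.05 and a log2 difference of at least 1. The study's methods name a family-wise permutation threshold, which 3 arrays against 3 cannot reach. The number of arrays limits the precision.

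The members and lists were chosen with earlier results of these data known. Every member could be named, and in each drug comparison the 3 members with the largest change each way among those above background on all 6 arrays were. Receptors, kinases, STAT factors and called genes of the pathway lists were named, except that the values of some pathway genes are not reported here. The scripts were tested on simulated data. Alternatives covered background correction, normalization, filters, day, slide, scan day, replicate number, probes, adjustment, an ordinary paired test by day and each array left out. The study's transcriptome methods name a moderated test, and a figure legend names a paired t-test for transcriptome values of selected genes.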

Additional observations from a re-analysis of the deposited data

Results flagged for a closer look

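The variant 1 probe of ZC3HAV1 changed differently with Pirfenidone in the lines at 6 h, by a test of the difference itself. The drug change was 1.64 higher in H1975 than in A549 on the log2 scale (SE 0.28, limma adjusted p = 0.0367). It was -0.15 in H1975 and -1.79 in A549. The variant 2 probe of ZC3HAV1 was not called in this test. The call of the variant 1 probe was lost in 20 of 26 other settings.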

How the results depend on the processing

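The number of members that differed between the lines stayed within 1.5 times its value under all alternatives run, at 26 to 41 at 6 h and 24 to 41 at 24 h, and no member called there changed direction. With Pirfenidone in A549 at 6 h, the call of ZC3HAV1 fell to 0 with only the arrays compared in the fit and with an ordinary paired test by day after Benjamini-Hochberg adjustment. In H1975 at 6 h, 2 members, IFIT2 and OASL, were called with day as a block, with slide as a random block and with an ordinary paired test by day unadjusted, and 1, IFIT2, without both A549 arrays of replicate 3 at 24 h. In H1975 at 24 h, 2 were called with no fold-change limit (OAS3 and XAF1), and 1 (XAF1) with a gene's probes averaged or with any probe of a gene counted, and leaving out 1 array gave 0 to 1. The difference between the lines in drug change at 6 h, 1 member, became 0 with normexp, quantile normalization, the authors' values, no filter on dim probes, only probes above background on all arrays, only the arrays compared, Holm adjustment, the mean of all probes, both A549 arrays of replicate 3 at 24 h left out, or scan day as a block, and 2 with day as a block (CMPK2 and ZC3HAV1). Leaving out 1 array gave 0 to 1. The causes were not tested, and the share of all probes called under each alternative is not given here. The alternatives with scan day and with any probe counted were chosen after seeing the data. Counts of 0 elsewhere stayed at 0.

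With a replicate block for the numbers in the labels, the counts were 37 and 35 between the lines, 1 for the drug in A549 at 6 h, 1 for the difference in drug change at 6 h and 0 in the others, and no count changed. Replicate numbers did not pair the samples throughout. For this, deviations from the group means were correlated over the probes tested, between PBS and Pirfenidone arrays. In H1975 at 6 h the correlations were -0.48, 0.43 and -0.68 for arrays with the same number. For arrays of the same day they were 0.82, 0.5 and 0.7. By day they were 0.72, 0.46 and 0.53 in H1975 at 24 h. In A549 they were 0.64, 0.7 and 0.58 at 6 h, but -0.1, 0.39 and 0.08 at 24 h. The main fit used no pairing. With 3 arrays a group, changes under the limit of 1 rested on few arrays, and dim members in A549 have only a bound.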
